A study of Rattus norvegicus with 6 samples.

Results

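The microRNA miR-335 was followed across 6 single-colour arrays of rat oligodendrocyte precursors in culture, which mature into the cells that wrap axons in myelin in brain and spinal cord. It is 1 of 761 rat miRNA probes, found by its name rno-miR-335 and tied to the deposited value table by its mature ID MIMAT0000575. The DIV3 group holds 3 samples of precursors differentiated by a change of growth factors, and the DIV0 group holds 3 samples kept in the normal condition. Both groups grew in Raff medium, the labels name no transgene or deletion, and each sample was hybridised with Cy5 to 1 array. The numbers in the sample titles were read as days 0 and 3 in vitro, so time in culture and the change of medium cannot be told apart. The labels do not say that the samples came from separate cultures, and the spread between them may be technical. The probe stands on a list of 13 miRNAs for oligodendrocyte differentiation. It was chosen because it was lower in DIV3 although described as raised in differentiating oligodendrocytes. The DIV3 against DIV0 contrast of miR-335 is therefore described here without a test.

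MicroRNAs are short RNAs that guide the silencing machinery to matching sites in messenger RNAs, mainly through the seed at their 5′ end. The gene of miR-335 lies in an intron of Mest, an imprinted gene that is transcribed from the paternal copy and codes for a hydrolase-like protein abundant in embryonic mesoderm. In human breast cancer cells miR-335 is known to restrain invasion by silencing SOX4 and the matrix protein tenascin C. In oligodendrocytes the best known miRNAs are miR-219 and miR-338, which silence genes that keep precursors from maturing. The array measures mature miRNAs only, so Mest itself was not measured.

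The mature sequences below are those of the miRNAs whose levels frame the behaviour of miR-335. The top 3 rose in DIV3, and the bottom 3 are among the 5 whose pattern over the arrays was most like that of miR-335. Capitals mark the seed, bases 2 to 8 from the 5′ end, and sequences are from RefSeq (GRCr8), matched by name for 6 of 7 miRNAs looked up. The miRNA without a match was miR-335 itself, so its sequence is not shown and its seed was not compared. The 6 shown have 6 different seeds.
miR-219a-5p: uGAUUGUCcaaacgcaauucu
miR-338-3p: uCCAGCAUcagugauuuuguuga
miR-138-5p: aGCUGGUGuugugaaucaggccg
miR-27a-3p: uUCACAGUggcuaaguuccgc
miR-21-5p: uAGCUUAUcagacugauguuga
miR-23a-3p: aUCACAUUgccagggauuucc

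The arrays differed in brightness. The median miRNA spot lay 27.9 to 44.7 units brighter than the blank spots on the DIV3 arrays and 5.87 to 37.7 units brighter on the DIV0 arrays, where replicate 3 was the dim one. Of the 761 miRNAs, 633 to 725 were detected on the DIV3 arrays and 605 to 696 on the DIV0 arrays, where detection means an intensity over the blank mean by 2 SD. This threshold is low: 32.6 to 42.9% of the spots named No Probe passed it on the DIV3 arrays and 33.5 to 45.2% on the DIV0 arrays, so a detected miRNA need not be present. The 4 probes taken here as oligodendrocyte markers, miR-338-3p, miR-138-5p, miR-219a-5p and miR-219a-2-3p, were detected on all 6 arrays. Their summed deposited intensity was 2513 to 3877 on the DIV3 arrays and 160 to 698 on the DIV0 arrays. They come from the list of 13, with earlier results of these data known, and all 4 rose in DIV3, so the sum restates the contrast. Of the 13 listed, 5 had a negative DIV3 minus DIV0 difference in the comparison below, miR-335 among them.

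The miR-335 spot was well above the blanks on every array. On the DIV3 arrays of replicates 1, 2 and 3 it had 181, 407 and 293.9 intensity units, which lay 39.4, 32.0 and 24.2 blank SDs above the blank mean. On the DIV0 arrays it had 245, 394 and 111 units, which lay 60.4, 35.0 and 35.4 blank SDs above it. No scanner flag was set on this spot in 6 arrays.

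Before any scaling between arrays, the conditions did not separate. After subtraction of the blank mean, miR-335 had 94.6, 197 and 122 units on the DIV3 arrays of replicates 1, 2 and 3, against 156, 205 and 37.8 units on the DIV0 arrays. The groups overlap, and the dim DIV0 array of replicate 3 is the lowest of all. Within pairs of equal replicate number the DIV3 over DIV0 ratio was 0.607, 0.960 and 3.24. The same ratio for the median miRNA spot was 1.09, 1.19 and 5.64, so miR-335 took a smaller ratio than the median spot in 3 of 3 pairs.

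Relative to the other miRNAs on its own array, miR-335 was lower in DIV3. Its deposited value, from the table in which each array has a median of 25, was 79, 88 and 69 on the DIV3 arrays of replicates 1, 2 and 3. On the DIV0 arrays it was 128, 107 and 110. All 3 DIV3 values lie below all 3 DIV0 values. The means were 78.7 ± 9.50 in DIV3 and 115 ± 11.4 in DIV0 (SD, n = 3 each), 31.6% lower in DIV3. Groups that did not overlap in this direction were found for 59 of 695 miRNAs tested on the normalized scale, or 8.49%, and nothing is read from the separation of miR-335, which was picked from this contrast.

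On the quantile-normalized scale, the log2 of blank-corrected intensity with 50 units added, miR-335 stood at 7.14, 7.37 and 7.17 on the DIV3 arrays of replicates 1, 2 and 3. It stood at 7.74, 7.72 and 7.76 on the DIV0 arrays. The DIV0 values lay close together, and the DIV3 array of replicate 2 was the highest of its group. The group means were 7.23 ± 0.12 in DIV3 and 7.74 ± 0.024 in DIV0 (SD, n = 3 each). The log2 difference was -0.51 ± 0.07 (SE from the limma fit over 695 miRNAs), a level 30.0% lower in DIV3 on this scale, where the 50 added units understate the change of dim probes. Of the 695, 6 passed an adjusted p of 0.05 as lower, 0.863%, and miR-335 was one of them by the choice of the probe. The replicate block, with pairs of equal number, left the difference at -0.51, as it must when every pair is complete. In bulk RNA, fewer cells of a type and less RNA per cell cannot be told apart.

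**Figure D1:**
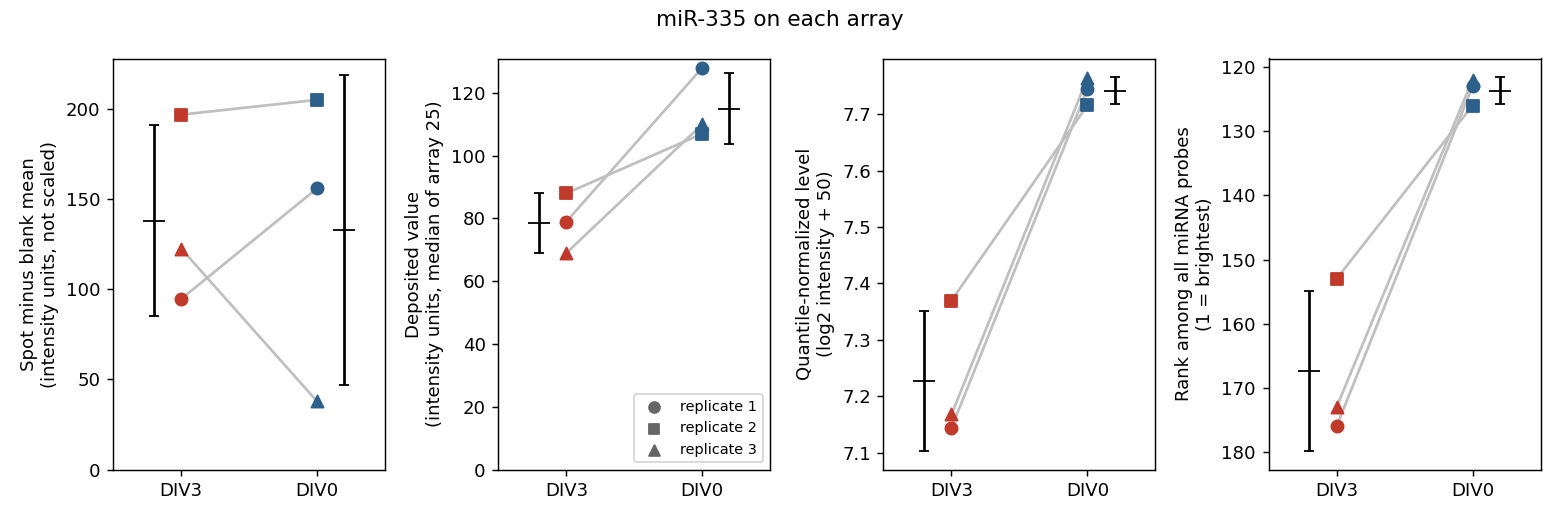
The value of miR-335 on each array, DIV3 left of DIV0, as blank-subtracted intensity without scaling, deposited intensity, quantile-normalized log2 level and rank among 761 probes (axis turned so that brighter is up). Symbols are replicates, grey lines join equal replicate numbers, and black bars are the mean ± SD of 3 arrays. Only the unscaled panel shows overlapping groups, with DIV0 replicate 3 at 37.8 units.

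The rank of the probe needs no scaling at all. By spot intensity miR-335 was number 176, 153 and 173 of the 761 miRNA probes on the DIV3 arrays of replicates 1, 2 and 3, and number 123, 126 and 122 on the DIV0 arrays, where 1 is the brightest. It thus stood 53, 27 and 51 places lower in DIV3 within the pairs. On the log2 scale the differences within pairs were -0.60, -0.35 and -0.60, with a mean of -0.51 ± 0.15 (SD, n = 3 pairs). In deposited values, miR-335 was 38.3%, 17.8% and 37.3% lower in the DIV3 array of pairs 1, 2 and 3. Pair 2 gave the smallest difference on each of these scales. The arrays of pair 1 shared a slide and those of pair 2 shared another, while the arrays of pair 3 lay on separate slides. Slides were told apart by the SR number that each array carries. All DIV3 samples lay at the second slide position and all DIV0 samples at the first, and the position cannot be told apart from the condition.

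Against probes of similar brightness, miR-335 had the lowest difference on the quantile-normalized scale. The mean normalized level of miR-335 over all 6 arrays was 7.48, number 144 of the 695 tested, and 85 other tested miRNAs lay within 0.5 of it. Their DIV3 minus DIV0 differences ran from -0.45 to 1.64 with a median of -0.053, and 0 of the 85 lay below miR-335. Over all 695 miRNAs the median was -0.0050, and 11 lay below miR-335. These ranks depend on the scale. Under median scaling, 75th percentile scaling and no normalization, 194 of the 695 lay below miR-335 but 0 of 91 probes of similar level. These scales differ only by a constant per array, so their ranks are the same by construction and count as 1 result. With the local background 580 of the 695 and 539 of 615 of similar level lay below it. There the window of 0.5 took in 615 of the 695, so it hardly selects for level. Of the probes of similar level 1 of 91 lay below miR-335 under cyclic loess, 1 of 123 with 100 units added, 3 of 221 within 1 of its level, and 0 to 2 when 1 array was left out. By the limma fit 3 of the 85 passed as higher and 0 as lower, with 10 whose groups were apart as lower and 10 as higher, where 8.49% and 10.1% of all 695 were so. In pair 1, 0 of the 85 were lower than miR-335, in pair 2 there were 11, and in pair 3 there were 0. Set against the median of these 85 on each array, miR-335 was at -0.20, 0.029 and -0.17 on the DIV3 arrays and at 0.41, 0.38 and 0.40 on the DIV0 arrays. The within-group SD of miR-335 was 0.089, and the median over the 85 was 0.14. These values use the contrast that picked miR-335 and carry no test.

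**Figure D2:**
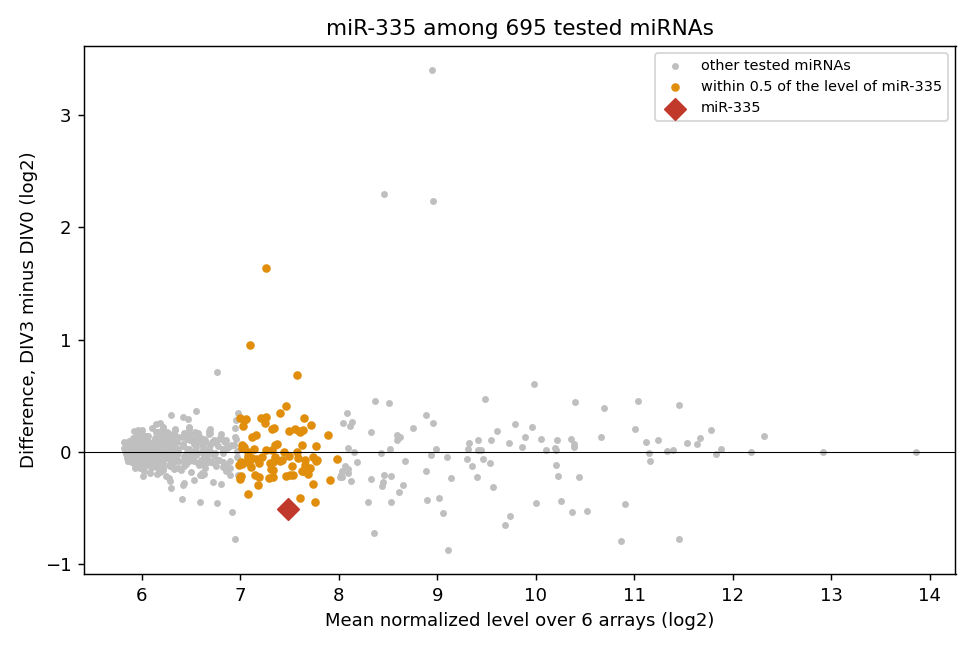
The DIV3 minus DIV0 log2 difference of each of 695 tested miRNAs (y) against its mean normalized log2 level over 6 arrays (x). The red diamond is miR-335 at 7.48 and -0.51, and the 85 orange points lie within 0.5 of its level, all of them above it.

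The nearest probes in level had differences of -0.22 to 0.41, some with wide errors, and were not tested against miR-335. The next 3 above it were miR-146b-5p, miR-181d-5p and miR-143-5p, with log2 differences of -0.21 ± 0.43, 0.19 ± 0.10 and -0.034 ± 0.11 (SE). The next 3 below were miR-449a-5p, miR-25-5p and miR-505-5p, with 0.41 ± 0.53, -0.22 ± 0.12 and -0.0016 ± 0.13. None of these 6 passed the threshold (limma adjusted p of 0.50 to 1.00).

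How far miR-335 differed depended on the scaling. The difference was -0.48 under cyclic loess and -0.55 in the log2 deposited values. It was -0.64 with 16 units added in place of 50, and -0.41 with 100. With each array scaled by its median after the offset was added, it was -0.10, the groups overlapped, and the pairs stood at -0.56, -0.16 and 0.40. On the dim DIV0 array of replicate 3 the 50 added units exceed the 37.8 units of miR-335 itself. With 16 units added only after scaling, the difference was -0.48 and pair 3 stood at -0.58. That setting changed both the size of the offset and the order of the steps. What turned the sign of pair 3 under median scaling was not tested. With no normalization between arrays the difference of miR-335 was 0.14, while the median of all miRNAs was 0.26 and that of probes of similar level 0.57. Relative to probes of similar level the difference was -0.46 on the main scale, -0.43 under median scaling and without normalization, -0.49 under cyclic loess and -0.71 in the deposited values. Median scaling and no normalization must give the same value here, since a constant per array cancels.

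**Figure D3:**
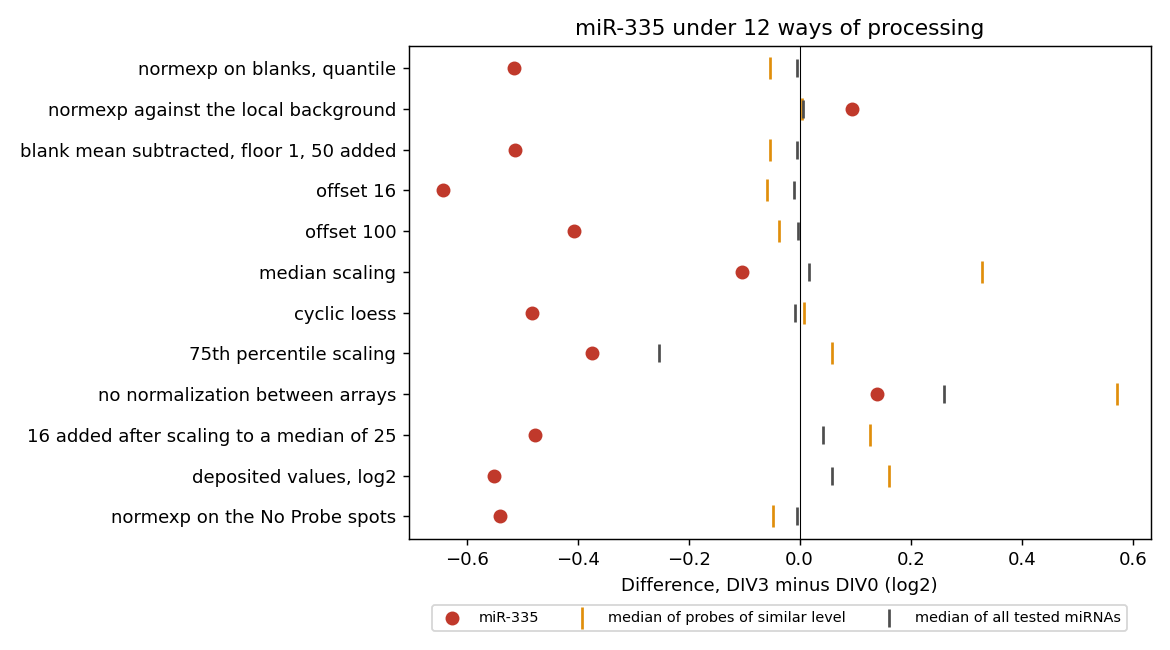
The DIV3 minus DIV0 log2 difference of miR-335 (red) under 12 ways of processing, with the median of probes of similar level (orange bars) and of all tested miRNAs (dark bars). With the local background miR-335 stands at 0.095, to the right of both medians. Without normalization it lies above 0 but to the left of both, and elsewhere it lies below 0 and to their left.

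The correction by local background turned the sign. The local background reported for the miR-335 spot was high. On the DIV0 array of replicate 1 it was 304 units, where the blank mean was 88.8. The spot over local background ratio was 1.27, 1.23 and 0.985 on the DIV3 arrays of replicates 1, 2 and 3, and 0.806, 1.10 and 1.07 on the DIV0 arrays. The spot thus read below its local background on the DIV0 array of replicate 1 and on the DIV3 array of replicate 3. On these arrays 58 and 40 miRNA probes read at or below theirs, miR-335 included. With normexp against this background the difference was 0.095, with 0.23, 0.14 and -0.081 in the pairs, and the groups overlapped. Across miRNA probes the local background followed the spot, with a correlation on the log scale of 0.939 to 0.982 per array, and what ties them was not tested.

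The spots next to miR-335 on the slide were dimmer. The 5 adjoining spots in its block are miRNA probes, and 0 of the 5 were brighter than miR-335 in their mean. The log2 differences were -0.21 ± 0.07 for miR-532-3p, -0.21 ± 0.08 for miR-532-5p, -0.077 ± 0.07 for miR-336-5p, -0.065 ± 0.10 for miR-323-3p and 0.087 ± 0.06 for miR-375-3p (SE). None of the 5 passed (limma adjusted p of 0.23 to 0.85).

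Over the 6 arrays, the normalized levels most like those of miR-335 belonged to miR-27a-3p (Pearson r = 0.98), miR-3541 (0.96), miR-21-5p (0.95), miR-130b-3p (0.93) and miR-23a-3p (0.92), out of 535 other miRNAs detected on all arrays. These correlations describe 6 points that share the arrays, their normalization and the division into groups. The miR-21-5p level, of a miRNA abundant in proliferating cells, was 10.78, 11.21 and 11.21 on the DIV3 arrays and 11.88, 11.88 and 11.77 on the DIV0 arrays. Of the 5, miR-21-5p passed as lower (-0.78 ± 0.13, limma adjusted p = 0.035). The miR-27a-3p level was -0.32 ± 0.06 apart (adjusted p = 0.058), and that of miR-23a-3p, the partner of miR-27a in one cluster, -0.54 ± 0.15 (adjusted p = 0.18, and 0.026 with the replicate block). The differences of miR-3541 and miR-130b-3p were -0.26 ± 0.06 and -0.20 ± 0.05 (adjusted p = 0.088 and 0.18). The levels least like miR-335 were those of miR-338-5p (r = -0.95), miR-22-5p (-0.95) and miR-338-3p (-0.94). Of these, miR-22-5p had a difference of 0.34 ± 0.07 (limma adjusted p = 0.076, and 0.037 with the replicate block). The other miRNAs past the threshold as lower were miR-211-3p (-0.88), miR-328a-5p (-0.66), miR-299a-3p (-0.54) and miR-762 (-0.47), each with a limma adjusted p of 0.035. Under median scaling several of these signs turned, with 0.35 for miR-27a-3p, 0.28 for miR-3541, 0.29 for miR-130b-3p, 0.20 for miR-23a-3p, 0.22 for miR-762 and 0.082 for miR-328a-5p. There miR-21-5p, miR-211-3p and miR-299a-3p stood at -0.098, -0.29 and -0.31, and in the log2 deposited values all 9 were negative.

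Of the 13 miRNAs on the list for oligodendrocyte differentiation, 5 passed the threshold as higher in DIV3. Of the other 8 only miR-335 was past the threshold, as lower. Since it was picked for being lower in this contrast, nothing is read from that. Over all 695 miRNAs 8 passed as higher, 1.15%, and 6 as lower, 0.863%, and on simulated data quantile normalization raised the share of false calls above the threshold. The 5 were miR-219a-5p (3.40 ± 0.54, limma adjusted p = 0.035), miR-138-5p (2.30 ± 0.26, 0.019), miR-338-3p (2.24 ± 0.23, 0.015), miR-219a-2-3p (1.64 ± 0.20, 0.022) and, from the miR-338 precursor, miR-338-5p (0.95 ± 0.10, 0.015). The median difference of the 13 was 0.11, against -0.0050 over all 695. A difference above 0 was found for 8 of the 13 and for 324 of the 695. Without miR-335 the median of the list was 0.16. The list was chosen with earlier results of these data known, so nothing is read from its calls, median or signs. The deposited values of miR-338-3p were 1141, 756 and 770 on the DIV3 arrays of replicates 1, 2 and 3, against 220, 82 and 110 on the DIV0 arrays. In each pair miR-338-3p thus lay higher in DIV3, where miR-335 lay lower.

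Of the other 7, the 3 lowest differences were those of miR-204-5p (-0.73 ± 0.38), miR-23a-3p, which is known to favour myelination in mice by silencing lamin B1 (-0.54 ± 0.15), and miR-146a-5p (-0.30 ± 0.68). The other 4 were miR-32-5p (0.048 ± 0.06), miR-184 (0.11 ± 0.07), miR-192-5p (0.21 ± 0.07) and miR-219a-1-3p (-0.13 ± 0.06). Under the replicate block 5 members of the list passed as higher and 3 as lower, the added 2 being miR-204-5p (limma adjusted p = 0.016) and miR-23a-3p (0.026). With the local background 1 member, miR-219a-5p, passed as higher and 0 as lower, and in the deposited values limma called 0, with 55 of the 695 at an unadjusted p under 0.05. When any single DIV3 array or the dim DIV0 array of replicate 3 was left out, 0 members and 0 of all 695 miRNAs passed in limma, while 73 to 81 of the 695 had an unadjusted p under 0.05. Leaving out DIV0 replicate 1 gave 5 higher and 0 lower, and leaving out DIV0 replicate 2 gave 4 and 0. The difference of miR-335 itself was -0.57 to -0.46 in these 6 fits.

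**Figure D4:**
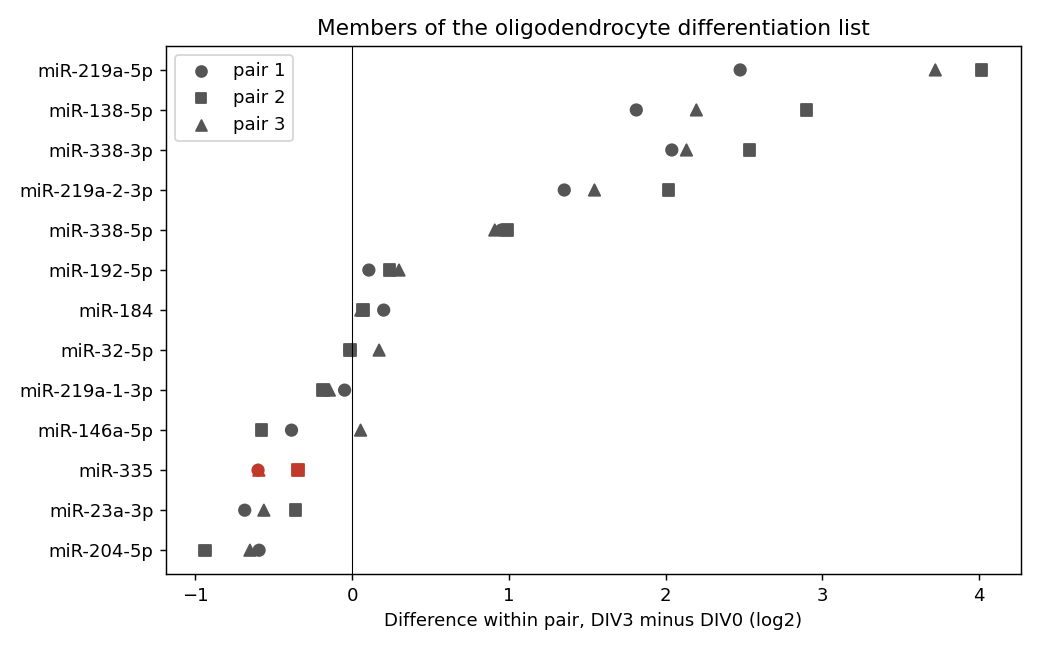
The log2 difference within each pair of equal replicate number, DIV3 minus DIV0, for the 13 listed miRNAs, ordered by their mean. The 3 values of miR-335 (red), -0.60, -0.35 and -0.60, lie left of 0, beside miR-23a-3p and miR-204-5p, while miR-219a-5p runs from 2.48 to 4.02.

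Other imprinted miRNAs were set beside miR-335. Outside the Dlk1-Dio3 cluster these were both arms of miR-483, from Igf2, of miR-675, made from H19, and of miR-296 and miR-298, from the Gnas region. Of these 8, limma called 0 without and 0 with the replicate block (3 had an unadjusted p under 0.05 without it). Their differences ran from -0.29 for miR-296-5p to 0.082 for miR-675-5p, and 7 of 8 were negative, with a median of -0.11. Over all 695 miRNAs 371 were negative, with a median of -0.0050, while 1.15% passed as higher and 0.863% as lower. The sign depended on the scale: 6 of 8 were negative under cyclic loess (median -0.11), 5 of 8 in the deposited values (-0.22), 4 of 8 under median scaling (0.076) and 2 of 8 with the local background (0.079). The values were -0.27 ± 0.07 for miR-296-3p, -0.14 ± 0.07 for miR-483-3p, -0.14 ± 0.06 for miR-675-3p, -0.082 ± 0.19 for miR-483-5p, -0.059 ± 0.06 for miR-298-5p and -0.013 ± 0.13 for miR-298-3p. Of 45 listed probes of the Dlk1-Dio3 cluster, a maternally expressed group of miRNAs, 41 were tested, 1 passed as lower and 0 as higher (limma, 2 at an unadjusted p under 0.05). The one that passed was miR-299a-3p (-0.54 ± 0.09). The median of the 41 was -0.052, with 33 negative. It was -0.053 under cyclic loess (30 negative), -0.13 under median scaling (36), -0.11 in the deposited values (29) and 0.0029 with the local background (17). On these 4 scales 30, 38, 32 and 25 of the 41 lay below the median of all miRNAs. Of the 45 probes 23 were detected on all 6 arrays. Of these 23, 18 had mean deposited values under the array median of 25 in both groups, and the signs of such dim probes carry little weight.

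Markers of other cells the culture could hold were counted beside miR-335, since Mest is best known from mesodermal cells. Of 10 mesenchymal, mural and endothelial miRNAs 7 were detected on all arrays and none was undetected on all of them, by the threshold that 32.6 to 45.2% of No Probe spots pass. Of these 7, 4 had mean deposited values under the array median of 25 in both groups. The summed deposited intensity was 218 to 443 on the DIV3 arrays and 212 to 408 on the DIV0 arrays. Of the 9 tested limma called 0, while 1 had an unadjusted p under 0.05, and the differences ran from -0.24 to 0.18. Over all 695 miRNAs 1.15% passed as higher and 0.863% as lower, so a count of 0 in lists this short says little. The 5 neuronal probes summed to 739 to 1020 in DIV3 and 784 to 1037 in DIV0, with 0 past the threshold (1 unadjusted). Their differences ran from -0.41 to 0.097, with 4 of 5 negative. The 6 microglial and blood-cell probes summed to 197 to 399 in DIV3 and 186 to 560 in DIV0, with 0 past it by limma (1 unadjusted). With the replicate block miR-223-3p passed as lower (limma adjusted p = 0.037). Differences of these 6 ran from -0.46 ± 0.34 (SE) for miR-155-5p to 0.017, with 5 of 6 negative and a median of -0.17. Over all 695 miRNAs 371 were negative. Under median scaling 1 of the 5 neuronal and 4 of the 6 microglial probes were negative, and with the local background 3 and 3. The part of such cells in the difference of miR-335 was not tested.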

How the data were processed

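MicroRNAs of 6 samples were measured on Cy5 arrays. Per the file headers, the deposited scanner files give spot medians as raw intensity for 3200 spots, with the median of their surroundings, from 3 gains joined. The labelling protocol names a messenger RNA amplification kit. The deposited table has other intensity values on a linear scale, made in an unstated way: each array has a median of 25 and the values fit a line through the raw spots with residuals up to 0.522.

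Intensities were corrected by normexp with the mean and SD of 1664 BLANK spots (limma 3.58.1, R 4.3.3, 50 units of offset), logged to base 2 and quantile-normalized over 761 miRNA probes, 3 of which name several miRNAs. Detection required the blank mean plus 2 SD, with 5% of blanks trimmed at each end. Detection on at least 3 arrays left 695. DIV3 was compared with DIV0, grouped by title, with lmFit and eBayes, two-sided, Benjamini-Hochberg adjusted over all 695, threshold 0.05. Arrays of equal number deviated together (correlations of 0.37, 0.54 and 0.47 across miRNAs), so numbers were taken as pairs. The number of arrays limits the precision. On simulated data the share of false calls lay near the threshold without quantile normalization and above it with it.

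The probe, the lists and the rule for named miRNAs (list members, nearest in level, most and least alike, adjoining spots, those past the threshold as lower) were chosen with earlier results of these data known. No coordinates are printed, as the labels name no genome build.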

Additional observations from a re-analysis of the deposited data

How the results depend on the processing

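The difference of miR-335 lay below 0 under 22 of 24 alternatives and its groups were apart under 20, all of which reuse the same arrays. Detection on all 6 arrays, no filter on dim probes and the replicate block leave the values of miR-335 as they are. Both results were fixed in advance for these, as was the separation under the slide block, so the counts overstate the agreement. The difference of miR-335 was 0.095 with the local background and 0.14 without normalization, -0.64 and -0.41 with offsets of 16 and 100, -0.10 under median and -0.37 under 75th percentile scaling, and -0.57 to -0.46 leaving out 1 array. Relative to probes of similar level it was 0.090 with the local background, -0.58 and -0.37 with offsets of 16 and 100, -0.60 with 16 added after scaling, -0.71 in the deposited values, -0.56 without both arrays numbered 2, and -0.52 to -0.42 leaving out 1 array. With the local background 615 of the 695 counted as of similar level. The median of all miRNAs itself shifted by -0.25 under 75th percentile scaling and by 0.26 without normalization. The No Probe background and leaving out pairs were chosen after seeing the data.

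Of all miRNAs, 8 were higher and 6 lower. With the replicate block there were 13 and 13, with the local background 1 and 0, under median scaling and 75th percentile scaling 4 and 0 each, under cyclic loess 8 and 2, with an offset of 16, 6 and 0, with 16 added after scaling 7 and 1, and with slide as a fixed block 1 and 0. Without both arrays numbered 1 they were 5 and 0, and leaving out 1 array 0 to 10 and 0 to 3. Counts were 0 and 0 by limma in 8 alternatives, among them the deposited values, no normalization and leaving out both arrays numbered 2 or 3, with 27 to 81 at an unadjusted p under 0.05. Members of the oligodendrocyte list past the threshold as higher, 5, became 1 with the local background or slide block, 0 in those 8 alternatives and 0 to 5 leaving out 1 array. The 1 lower, miR-335 itself, became 3 with the replicate block, stayed 1 under cyclic loess, and was 0 leaving out any array and under 11 more settings: median or 75th percentile scaling, no normalization, 16 added after scaling, the local background, an offset of 16, the slide block, the deposited values and leaving out any pair. The 2 imprinted miRNAs past the threshold, miR-335 and miR-299a-3p, became 1 under cyclic loess, 0 in the same 11 settings, and 0 to 1 leaving out 1 array. The causes were not tested. The replicate block changed no other call named here. Dimness limits these data on the DIV0 array of replicate 3, whose median miRNA spot lay 5.87 units above the blanks.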

Other observations

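Among the miRNA genes that neighbour Mest in the RefSeq table (names and order only, chosen after the data were seen), the 3 on each side gave 9 probes. None of the 9 passed by limma (lowest adjusted p = 0.23). The probe nearest to miR-335 in its difference was miR-29a-3p, -0.57 ± 0.19 (SE), from the second gene after Mest, while the other 8 ran from -0.22 for miR-183-3p to 0.20 for miR-96-5p.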
